A study of Mus musculus with 2 samples.

Results

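The regions described here are transcript models made of 1 exon that lay on the strand opposite an annotated gene and held at least 20 long reads in a library of mouse hippocampus. They were selected on their read number, so their abundance is a description. There were 649 such models (355 in replicate 1 and 294 in replicate 2) among 238679 models with reads. Of these, 645 were mouse models and the other 4 lay on ERCC spike-ins, synthetic control RNAs. Models of both libraries that overlapped on the same strand were joined, which gave 409 mouse loci among 23249 loci with any single-exon antisense read. Both libraries came from the hippocampus (its layer, in the words of the labels) of male B6CASTF1/J mice, the hybrid of C57BL/6J and CAST/EiJ, aged 14 days. No gene was altered and no treatment is named. They are biological replicates 1 and 2 of 1 group, each from pooled tissue of 3 males and 2 µg of RNA. One level of the labels names different animals for each and another repeats the same animals for both, so the spread between them may be technical. Marker genes of neurons, glia, vessels, blood and choroid plexus were looked up, and 23 of 23 were detected in both libraries. Their detection does not set the hippocampus apart from other brain regions. The summed level of 3 oligodendrocyte markers was 4378 CPM in replicate 1 and 2112 in replicate 2. CPM is reads times 1000000 over the mouse reads of the library. Replicate 1 held 821324 mouse reads and replicate 2 held 743862.

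Antisense RNA is transcribed from the strand opposite a gene and is complementary to its RNA where they overlap. Some antisense RNAs are spliced, stable non-coding RNAs that act on the gene they overlap, and others arise at divergent promoters or where the RNA of a neighbouring gene runs on past its end. The strand of a spliced read is also given by its splice sites, which a read of 1 exon lacks. Its strand rests on the orientation of the cDNA, whose 3′ end is where the primer annealed, usually the poly(A) tail. Primers of T can also anneal to a run of A inside an RNA. For these reasons the bases at the 3′ ends of the models are shown first.

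The 30 bases below run 5′ to 3′ on the antisense strand: the last 10 bases of the most abundant model and the 20 genomic bases after it. Capitals mark the longest run of A in or touching the 20 bases. They were taken from the mm10 sequence of GENCODE M21 transcripts, and each lies within 1 annotated exon of the gene on the other strand. The first 5 are loci whose models stopped at a run of A, and the last 3 are abundant loci whose models did not. They are examples of both forms, and their numbers are not a share of the loci. Among the 15 most abundant loci, the 20 bases held at least 12 A in 6 of the 14 that could be read.
Map1b (chr13:99424405-99424434, + strand): ctcgagtagctAAAAAAAAAAAAAAAAAAA
AI593442 (chr9:52676793-52676822, + strand): tctgaggctcAAAAAAAAAAAAAAAAAAAA
Ncan (chr8:70094805-70094834, + strand): aaccctgtttcAAAAAAAAAAAAAAAAAAA
Dpysl2 (chr14:66804875-66804904, + strand): atttagtattAAAAAAAAAAAAAAtctctc
Spry2 (chr14:105892586-105892615, + strand): cacatggaccAAAAAAAAAAAAAAAAAAAA
Snhg11 (chr2:158382118-158382147, - strand): gctttgtttcaggactgggAAgaatccagg
Shank1 (chr7:44357981-44358010, - strand): agagagcaagctagcgAAggcggtggcgct
Adam22 (chr5:8078677-8078706, + strand): cagttgttcttAAAtggatgtctcccatag

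The 20 bases after the 3′ end could be read for 200 of the 409 loci, those whose window fell within 1 annotated exon. They were A-rich (at least 12 A of 20) in 102 of the 200 loci, 51.0%, and were A throughout in 46 loci, 23.0% (Wilson 95% interval 17.7 to 29.3). The counts of A fell into separate low and high ranges, with few loci between. Among loci in 3′ UTRs the window was A-rich in 84 of 141, 59.6%. Among loci in introns it was A-rich in 3 of 33, 9.09%, but these 33 are only the part of the 205 intronic loci whose ends fell in an exon of some transcript. The 20 bases beyond the 5′ end, read on the strand of the opposite gene, were A-rich in 6 of 183 loci, 3.28%. They were A throughout in 0 of 183, which allows a share of up to 2.06% (upper Wilson 95% limit). This window is on the other strand and could not be read for models such as that of Map1b, which begin at the gene end. It is therefore not a matched background. The other 22840 single-exon antisense loci, here called rarer, had no single model of 20 reads in either library, though their models together may hold 20 or more. They had an A-rich window after the 3′ end in 992 of 2000 loci in exons, 49.6%, against 95 of 158, 60.1%, for the abundant loci in exons. Abundant and rarer loci in exons both had such ends, and the difference between them was not tested. The part of priming at runs of A in the antisense reads was not tested.

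**Figure D1:**
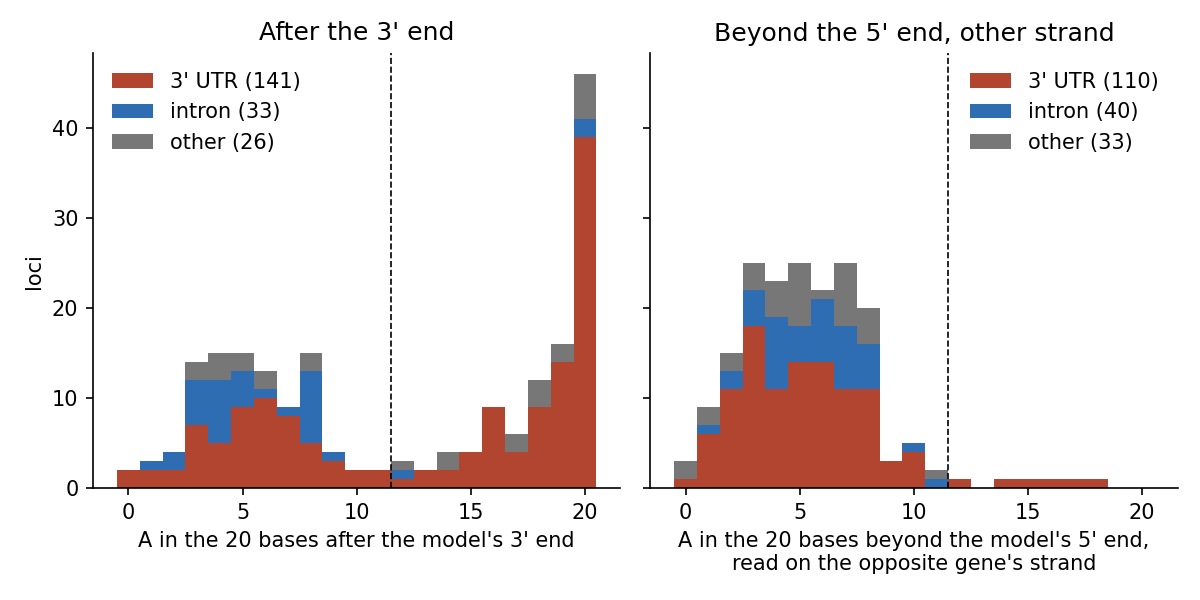
Number of A among 20 bases (x axis) against the number of loci (y axis), after the 3′ end of the most abundant antisense model (left) and beyond its 5′ end on the strand of the opposite gene (right), coloured by place, with the dashed line at 12 A. After the 3′ end 102 of 200 loci lie right of the line, and beyond the 5′ end 6 of 183 do.

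The abundant loci held 3.39% of mouse reads in replicate 1 and 3.82% in replicate 2 when only the member models were counted (3.61% ± 0.303, SD, n = 2). They were 42.3% and 45.5% of all single-exon antisense reads. Counts are of reads and were not divided by length. The median model spanned 2198 bases, against 1661 for rarer loci. The 10 loci with most reads held 44.0% of the loci's reads in replicate 1 and 43.1% in replicate 2. At the limit of the selection, 23 models in replicate 1 and 15 in replicate 2 held exactly 20 reads, among them models opposite 2610301B20Rik, 9330159F19Rik and A830082K12Rik. Another 25 and 28 models held 19 reads and were left out, among them models opposite Acsl4 and Ado and, in replicate 2, A830082K12Rik. The loci lay opposite 388 genes, of which 20 had 2 loci each, and 1 of the 409 had no annotated opposite gene. For 397 of the 409, the gene found here was among those the deposited annotation names as the opposite gene. Counted over all 409, 13 overlapped an annotated gene of their own strand, and 28 had spliced antisense reads as well.

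Place in the opposite gene, which the selection did not use, changed with abundance. Of the 409 loci, 149 lay mostly in a 3′ UTR (36.4%), 205 in an intron (50.1%), 27 in an exon of a non-coding transcript, 6 in coding exons, 2 in a 5′ UTR and 19 outside the gene, beside the 1 without an annotated opposite gene. Of the 22840 rarer loci, 6.69% lay mostly in a 3′ UTR and 81.4% in an intron. Split by the reads of the most abundant model, the 3′ UTR share was 18.2% of 650 loci with 10 to 19 reads (Wilson 95% interval 15.4 to 21.3), 27.4% of 303 loci with 20 to 49 (22.7 to 32.7), 51.6% of 64 loci with 50 to 99 (39.6 to 63.4) and 78.6% of 42 loci with 100 or more (64.1 to 88.3). The intronic share went the other way, from 70.5% to 4.76% over the same range. The intervals of the lowest and the highest range do not overlap for either place. Loci are not replicates, some share a gene, and the intervals cover counting error only.

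**Figure D2:**
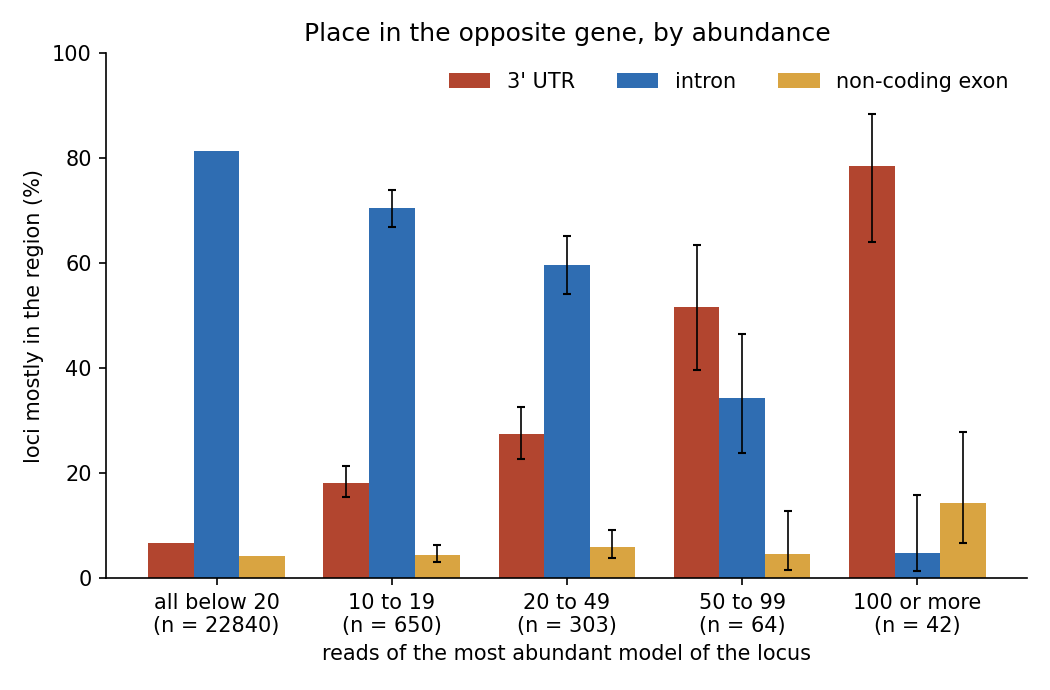
Share of loci mostly in a 3′ UTR, an intron or a non-coding exon of the opposite gene (y axis, %) by the reads of the most abundant model (x axis), with Wilson 95% intervals for the 4 ranges from 10 reads up. The 3′ UTR bar is 18.2% at 10 to 19 reads and 78.6% at 100 or more, and the intron bar goes from 70.5% to 4.76%.

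The last exon held 170 of the 409 loci (41.6%), against 10.8% of rarer loci. The antisense model began within 100 bases of the annotated 3′ end of the opposite gene in 66 loci (16.1%, against 6.68%), and at its very last base in 55. Such models began, on the other strand, where the annotated transcript of the gene ends. In the 50 bases of the gene's own strand at that side, the polyadenylation signal AATAAA was found in 34 of 64 loci that began at a gene end, 53.1%, and in 10 of 128 that began elsewhere, 7.81%. Among the rarer loci these numbers were 424 of 1362, 31.1%, and 115 of 3310, 3.47%. At a gene end this window is the annotated end of the gene, where its own signal lies. The contrast therefore follows from the grouping, and nothing is read from it. In the last 50 bases of the antisense model itself, where a signal for its own tail would lie, AATAAA was found in 6 of 200 loci, 3.0%, against 7.92% of rarer loci. By place it was 3 of 178 in exons, 1.69%, against 9.57% of rarer loci, and 3 of 17 in introns, 17.6%, against 3.44%. These 17 are only the part of the 205 intronic loci whose last 50 bases fell in an exon of some transcript. No match says only that these letters were not in the window. A sense model, of 1 exon or as a last exon, with both ends within 100 bases was found for 19 loci (4.65%, against 0.718%), and for 13 both ends were the same base. A start within 500 bases of the opposite gene's own start, as a divergent or overlapping promoter would give, was found in 24 loci (5.87%, against 6.93%). A gene of the same strand ended within 5000 bases upstream of 55 loci (13.4%, against 7.35%).

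The ends of the models were compared over the 227 loci with a member model in both libraries. The 3′ ends of the most abundant models lay within 25 bases in 179 loci, 78.9%, and at the same base in 136. The 5′ ends lay within 25 bases in 81 loci, 35.7%, and at the same base in 56. The median gap was 0 bases at the 3′ end and 396 bases at the 5′ end. In 3′ UTRs, 79 of 108 loci had 3′ ends within 25 bases and 36 of 108 had such 5′ ends. In introns these numbers were 76 and 31 of 90. In both places the 3′ end differed less between the libraries than the 5′ end. Where the bases after the model were known, 62 of 74 loci with an A-rich window and 42 of 62 without one had 3′ ends within 25 bases. Part of the models were given spans far shorter than a read (6 member models were written as 1 base long, 2 in replicate 1 and 4 in replicate 2), so a span is the caller's and not that of each read.

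**Figure D3:**
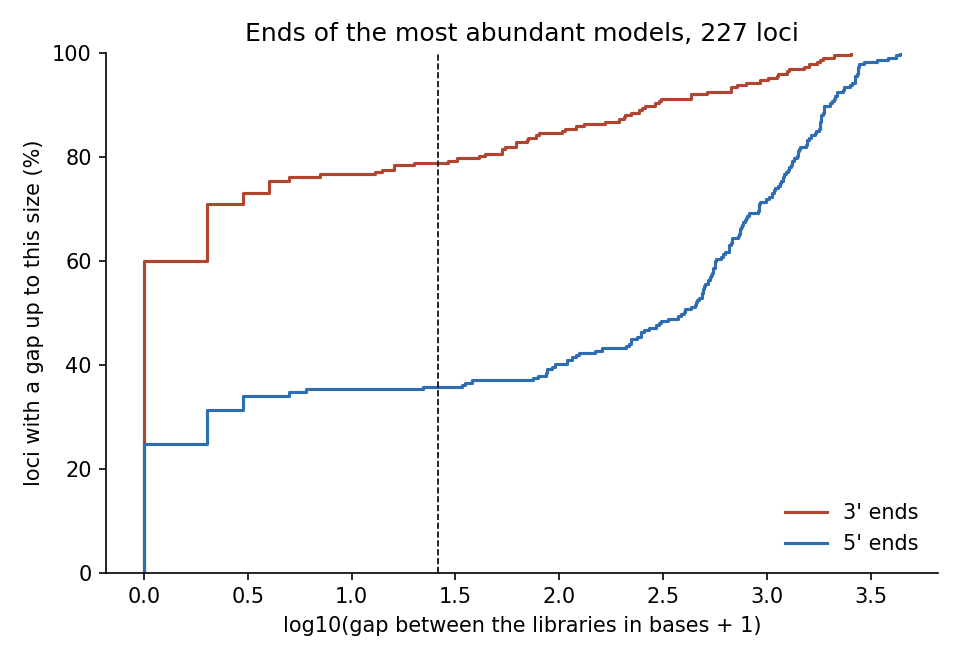
Cumulative share of the 227 loci (y axis, %) by the gap between the libraries at the 3′ end and at the 5′ end of their most abundant models (x axis, log10 of bases + 1), with the dashed line at 25 bases. At the line the 3′ ends have reached 78.9% and the 5′ ends 35.7%.

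The most abundant locus lay opposite Gm26917, a long non-coding RNA gene, at chr17:39843013-39846245 on the minus strand. It held 6167 reads in replicate 1 and 3254 in replicate 2, which was 21.5% and 10.8% of the loci's reads. Gm26917 itself had 16 and 19 reads. The locus began 108 bases after the end of CT010467.1, annotated as a ribosomal RNA gene on the same strand. Ribosomal DNA is repeated in the genome, so the position of these reads is uncertain. Its 3′ end was the same base in both libraries.

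Among loci opposite 3′ UTRs, the antisense reads exceeded those of the gene itself for most of the abundant ones. Snhg11, a host gene of small nucleolar RNAs with a brain-expressed transcript, had 1941 and 1173 antisense reads in replicates 1 and 2 beside 108 and 83 sense reads. Cplx2, complexin 2, which binds SNARE complexes at the synaptic vesicle, had 851 and 1781 antisense reads beside 235 and 218 sense reads. In both genes the lower antisense count was above the higher sense count. Map1b, a microtubule-associated protein of growing axons, had 659 and 691 antisense reads beside 32 and 32 sense reads, and its model ran from the last annotated base of the gene over 2969 bases to the run of A printed above. AI593442 had 453 and 533 antisense reads beside 15 and 15 sense reads. Its most abundant model, that of replicate 2, had the same form. The 5′ end of the replicate 1 model lay 4369 bases away. Nfia, a transcription factor of glial differentiation, had 412 and 511 beside 30 and 35. Adam22, a receptor for the synaptic protein LGI1, had 264 and 429 beside 10 and 15. Ncan, the proteoglycan neurocan of the perineuronal matrix, had 260 and 428 beside 36 and 55. Nlgn3, a neuroligin that binds presynaptic neurexin, had 312 and 367 beside 46 and 41. Dpysl2, a collapsin response mediator protein, had 266 and 389 beside 21 and 17. In each of these genes both libraries held more antisense than sense reads. So did both for an exon of a non-coding gene, 2900097C17Rik, with 747 and 748 antisense reads beside 372 and 340 sense reads and a model that ended at 20 A of 20.

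Sense reads led in others. Actb, beta-actin, had 238 and 436 antisense reads beside 1046 and 953 sense reads, and it has many processed copies in the genome, so its reads are less certainly placed. Ywhaz, a 14-3-3 protein, had 311 and 295 antisense reads beside 645 and 642, and Snap25, a SNARE protein of the presynaptic membrane, had 54 and 54 beside 1127 and 799. Qk, an RNA-binding protein needed for myelin, had 126 and 125 antisense reads beside 172 and 177.

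**Figure D4:**
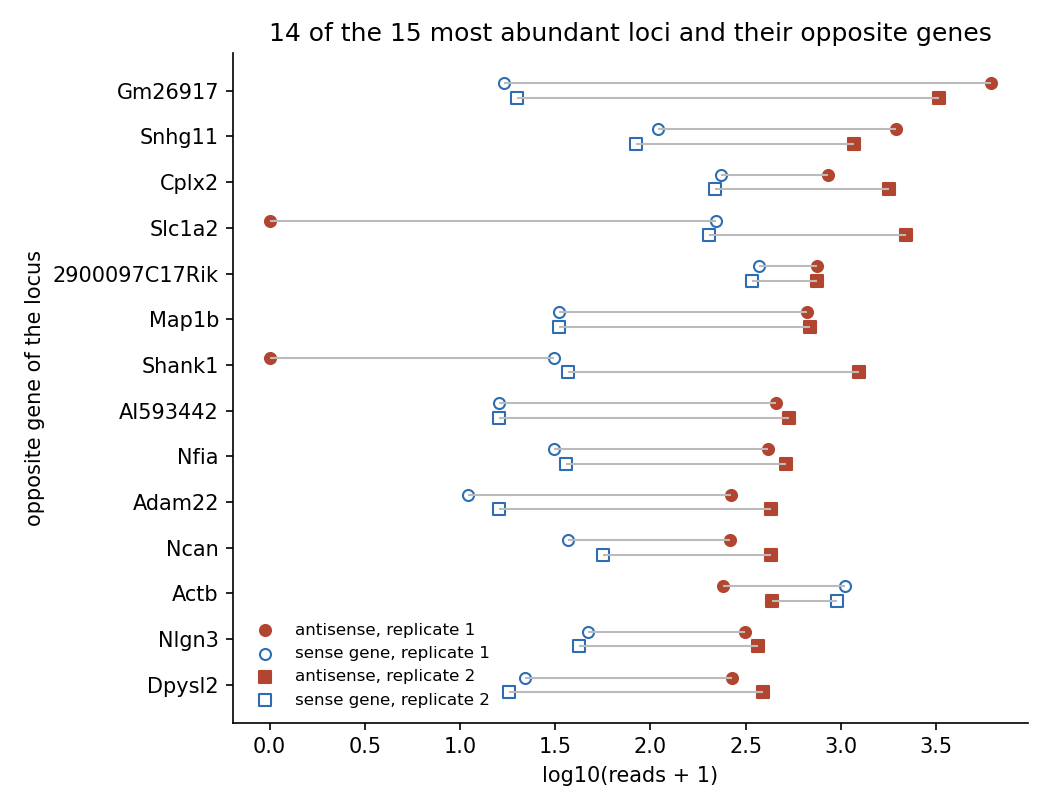
Reads of the antisense locus (filled) and of the opposite gene (open) for 14 of the 15 most abundant loci, on a log10(reads + 1) axis, with circles for replicate 1 and squares for replicate 2. The antisense points lie right of the sense points in both libraries for 11 of the 14, and the exceptions are Actb and the replicate 1 values of Slc1a2 and Shank1, which are 0.

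Over all 409 loci, 205 had more antisense than sense gene reads in replicate 1, and the number was 205 in replicate 2 as well. In 3′ UTRs the antisense reads were a median of 77.1% of the reads over the model in replicate 1 and 77.2% in replicate 2, and 10 of 149 loci had no sense read over the model in each library. In introns, 111 of 205 loci in replicate 1 and 117 in replicate 2 had no sense read over the model. A share of loci with more antisense reads is partly fixed by the selection, which asks for antisense reads and not for sense reads.

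The most abundant intronic locus lay in Slc1a2, the main glutamate transporter of astrocytes, with 332 and 284 reads. Focad, a focal adhesion protein, had 191 and 79 intronic antisense reads beside 26 and 28 sense reads of the gene. The locus of Ube2s, a ubiquitin-conjugating enzyme of the anaphase-promoting complex, had 74 and 100, and its most abundant model spanned 176 bases. Spred2, an inhibitor of Ras signalling, had 94 and 45. None of the reads of Focad, Ube2s or Spred2 in the sense direction lay over the antisense model in replicate 1 or 2. A locus that began beyond the end of Spry2, another inhibitor of receptor tyrosine kinase signalling, had 72 and 171 reads and ended at 20 A of 20. Uchl1, a neuronal ubiquitin hydrolase, had 51 and 27 in an intron beside 350 and 271 sense reads.

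Most loci were seen in both libraries. A read was present in both for 384 of 409 loci, 93.9%, against 7554 of 22840 rarer loci, 33.1%, a gap that the read minimum itself favours. At least 20 reads in a single model were present in both libraries for 227 loci, of 348 that passed in replicate 1 and 288 that passed in replicate 2. The CPM values lay within 2-fold for 326 loci, 79.7%. The other 25 loci had 0 single-exon antisense reads in 1 library, 10 of them in replicate 1 and 15 in replicate 2. In 16 of the 25, that library held reads of another class on the same strand that were not given to an annotated gene. Reads of every class, here and below, leave out those given to an annotated gene of the strand. In the 3′ UTR of Slc1a2, replicate 1 had 0 single-exon antisense reads and replicate 2 had 2194. Reads of every class on that strand were 2160 and 2194. Of the former, 1963 were in a model of 1 exon that the authors' table classed as an incomplete splice match. In Shank1, a scaffold of the postsynaptic density, the counts were 0 and 1242, and 962 and 1243 over every class, with 950 of the former in a model classed as genomic. Tug1, a long non-coding RNA, had 0 and 103, and 115 and 103 over every class. Dvl3, a Wnt signalling protein, had 0 and 67, and 61 and 67. In the other direction, Rnf146 had 46 and 0 (46 and 24 over every class), Ppm1h 45 and 0 (45 and 49) and Mthfsl 38 and 0 (38 and 22). Of the other 9 loci, 6 overlapped a model that the library at 0 had given to an annotated gene of that strand. For Tmem151b, with 0 and 138, that was a model of Tcte1 with 122 reads. For Slc3a1, with 35 and 0, it was a transcript of Prepl. The remaining 3 had no model on that strand, but each had a neighbour at most 23 bases away: the loci of Gnaq, a G protein subunit, with 35 and 0 and with 0 and 49, and a locus of Nova2, a neuronal splicing regulator, with 46 and 0 beside one with 2 and 57.

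**Figure D5:**
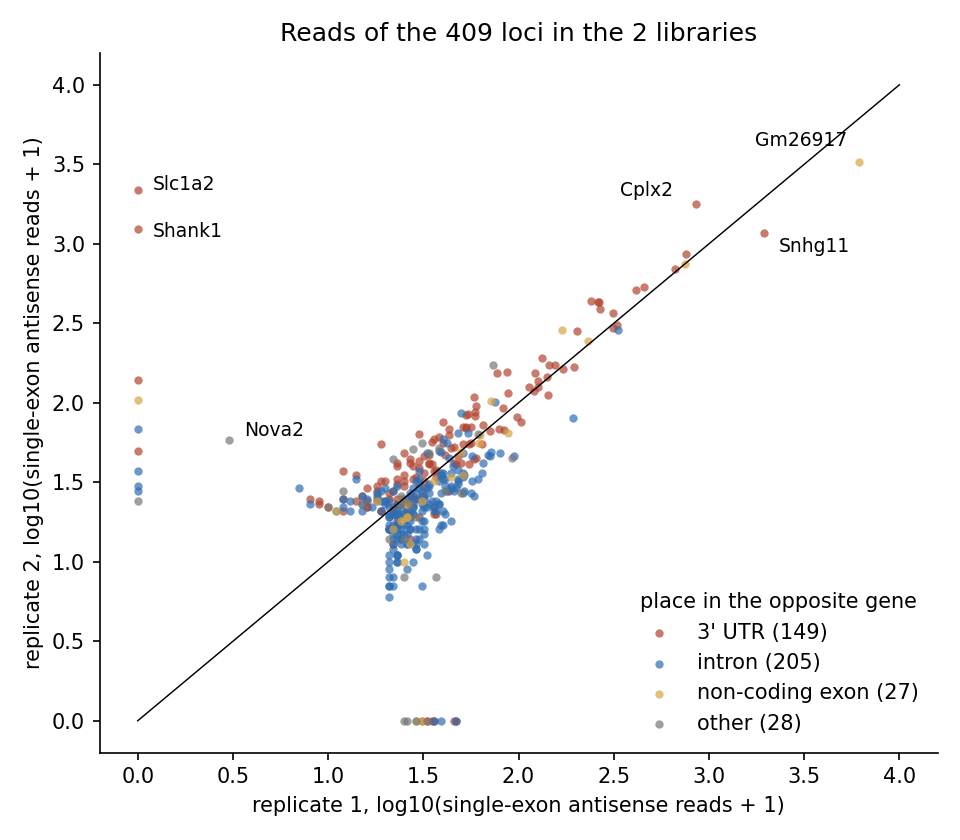
Single-exon antisense reads of the 409 loci in replicate 1 (x axis) and replicate 2 (y axis), on log10(reads + 1) scales, coloured by place, with the line of equal reads. The 25 loci on the axes had 0 such reads in 1 library, and Slc1a2 (0 and 2194) and Shank1 (0 and 1242) stand farthest from the line.

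The 2 libraries were compared locus by locus with Fisher's exact test, two-sided, on antisense reads against all other mouse reads. With 1 library on each side the test compares these libraries against counting error and says nothing of conditions. Over all 785 single-exon antisense loci with at least 20 reads in total, 77 had an adjusted p below 0.05 (9.81%), 51 higher in replicate 2 (6.50%) and 26 lower (3.31%). The abundant loci were 74 of the 77, 49 higher and 25 lower. The selection was on the same counts, so nothing is read from that share. On the reads of every class on the strand, 62 of the 785 were called (7.90%), 59 of them abundant loci. That count leaves out reads given to an annotated gene of the strand. Tmem151b, whose replicate 1 reads were given to Tcte1, thus stayed called (adjusted p = 6.77e-43, Fisher's exact test). Of loci in 3′ UTRs, 39 of 149 were called, 32 of them higher in replicate 2, and the median log2 ratio of replicate 2 over replicate 1 was 0.39. Of loci in introns, 17 of 205 were called, 8 of them higher in replicate 2, and the median was -0.33. Over all 409 the median was -0.01. These counts and medians by place are of loci chosen on the same reads. The shares over all tested loci of each place were not computed, so nothing is read from them. The summed level of 3 oligodendrocyte markers (4378 and 2112 CPM) and the level of Ttr, the choroid plexus marker (194 and 87.4 CPM), were lower in replicate 2. The part of these cell types in the antisense values was not tested. In bulk tissue fewer cells of a type cannot be told apart from less RNA per cell.

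Among loci with reads in both libraries, Cplx2 was 1036 CPM in replicate 1 and 2394 CPM in replicate 2 (log2 ratio 1.21, adjusted p = 2.68e-94, Fisher's exact test), although the most abundant models of the libraries differed in span. Actb was 290 and 586 CPM (log2 ratio 1.01, adjusted p = 2.96e-17, Fisher's exact test), and Spry2 87.7 and 229.9 CPM (1.39, adjusted p = 3.12e-11, same test). The locus opposite Gm26917 was 7509 and 4374 CPM (log2 ratio -0.78, adjusted p = 9.01e-142, Fisher's exact test), Snhg11 2363 and 1577 CPM (-0.58, adjusted p = 1.73e-26, same test) and Focad 233 and 106 CPM (-1.13, adjusted p = 3.31e-08, same test). Map1b was 802 and 929 CPM and 2900097C17Rik 910 and 1006 CPM, and neither passed the test (adjusted p = 0.0666 and 0.245, Fisher's exact test). The balance of single-exon antisense against sense gene reads differed between the libraries in 29 of 782 loci tested (3.71%), all abundant loci. Loci whose reads fell in another class in 1 library were called too. Slc1a2 in its 3′ UTR and Shank1 were such loci (adjusted p = 5.46e-198 and 2.54e-40, Fisher's exact test). The balance over every class was not tested. In Cplx2 and Actb the balance of single-exon antisense against sense reads moved with the antisense reads (adjusted p = 1.09e-12 and 3.04e-12, Fisher's exact test). In Snhg11 both strands were lower in replicate 2, and the balance did not pass the test (adjusted p = 0.611, same test).

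The opposite genes were counted in lists of genes of the tissue. Of 18311 genes with sense reads, 376 had an abundant antisense locus (2.05%), and of 1525 genes with at least 200 sense reads in total, 77 did (5.05%). Postsynaptic density and receptor genes had one in 9 of 30, among them Shank1, Nlgn3, Nlgn2, Camk2b, Grin2a, Nrgn, Ppp3ca and Grin2b. Cytoskeletal and axonal genes had one in 6 of 33, Map1b, Actb, Dpysl2, Stmn3, Tubb5 and Mapt. Genes of protein folding and turnover had 3 of 19 (Ywhaz, Uchl1, Ywhae), presynaptic genes 4 of 31 (Cplx2, Snap25, Syt11, Syt1), and ion channels and pumps 3 of 25. Those of the last list were the calcium pumps Atp2b2 (83 and 66 antisense reads) and Atp2b1 (31 and 35) and the calcium channel subunit Cacna1e (17 and 29). Astrocyte genes had 2 of 20 (Slc1a2 and Cpe), genes of myelin and oligodendrocytes 1 of 15 (Qk), and genes of energy metabolism 0 of 20. The lists were not matched to all genes by sense reads, and no test of the lists was made. Grin2a, an NMDA receptor subunit, had 31 and 45 antisense reads in its 3′ UTR beside 18 and 22 sense reads. Camk2b, a subunit of CaM kinase II, had its 2 loci in introns, with 56 and 31 and with 27 and 19 reads beside 733 and 632 sense reads of the gene.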

How the data were processed

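Long-read RNA sequencing of 2 hippocampus libraries was analysed. The deposited tables hold raw read counts per transcript model, per the file headers and the values, and the authors' annotation of each library gives positions on mm10. The members and gene lists were chosen with earlier results of these data known. Aligner and caller: not given in the sources used here.

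Mouse models of 1 exon classed as antisense were joined into loci by same-strand overlap of at least 1 base. The most abundant model stood for its locus, and its place was taken from the opposite-strand GENCODE M21 gene with the most exonic overlap, by the region holding most of its bases. CPM is reads times 1000000 over the library's mouse reads, without ERCC. Loci were compared with Fisher's exact test (scipy 1.17.1), two-sided, with Benjamini-Hochberg adjustment over all loci with at least 20 reads in total. Log2 ratios had 0.5 reads added. The test was checked on simulated counts. With 0 reads, up to 3 are allowed, equal to 3.65 (replicate 1) and 4.03 (replicate 2) CPM. Intervals are Wilson intervals at 95% and cover counting error only, since amplified reads are not independent molecules. No genome sequence was used, so bases beside a model were read from M21 transcripts.

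Named loci were the 15 highest in mean CPM, up to 5 with the largest ratio in each direction among those called and at least 2-fold, the 5 most abundant in introns or outside exons, the 5 most abundant with more antisense than sense reads, 2 per gene list, and 3 models on each side of the read minimum. Others were named after their values were seen: Gnaq, Tcte1, Prepl and the further list members. Some loci under this rule are not reported here. Library sizes from edgeR 4.0.16 (TMM) and DESeq2 1.42.0 were alternatives.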

Additional observations from a re-analysis of the deposited data

Results flagged for a closer look

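Antisense reads were also present on ERCC controls, which are outside the main measurement. Replicate 1 had 107 antisense reads of 10939 (0.978%, Wilson 95% interval 0.810 to 1.18) and replicate 2 had 81 of 9523. All of them fell on 4 controls, ERCC-00009 (72 and 52 reads), ERCC-00116 (32 and 23), ERCC-00059 (2 and 1) and ERCC-00099 (1 and 5). Each of these had 0 sense reads, and the other controls had 0 antisense reads, so no control had reads on both strands. The antisense share of mouse reads was 8.39% ± 0.265 (SD, n = 2).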

How the results depend on the processing

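The read minimum set the number of members: with 10, 50 and 100 reads there were 1628, 171 and 76 mouse models in place of 645, and 1059, 106 and 42 loci in place of 409. At those minimums 25.2%, 62.3% and 78.6% of loci lay mostly in a 3′ UTR, and 29.6%, 69.8% and 90.5% mostly in the last exon. Loci with reads in both libraries were 57.0% at 20 reads in each and 74.3% when models had to share 50% of the longer one. They were 97.8% on reads of every class on the strand, which leave out those given to annotated genes. Exons of the opposite gene held 38.9% of loci at 90% of their bases, 71.4% at 1 base and 36.2% with its most abundant transcript, which put 34.5% in the last exon. More antisense than sense reads, 52.6% of loci on both libraries summed, became 77.5% over the locus only and 72.4% with annotated transcripts only. The share of mouse reads, 3.78% on all reads of the loci, was 3.18% without Gm26917. At a minimum of 10 reads, 45 loci differed in strand balance in place of 29. Leaving out replicate 1 or 2 gave 292 to 353 models, 288 to 348 loci, 34.5 to 46.2% in 3′ UTRs, 44.8 to 55.6% in exons, 40.2 to 51.4% in the last exon and 53.7 to 60.1% with more antisense reads, the higher share each time without replicate 1. The cause was not tested. The other 37 settings of these 13 results stayed within 1.5 times, within the interval or, for the share of mouse reads, within the SD of the reported value. That share was 4.05% without replicate 1 and 3.5% without replicate 2. Leaving out 1 of 2 libraries cannot exceed that SD, so this decides nothing. The 37 settings also covered the A-rich window (other definitions of A-rich and models of at least 100 bases) and the start at the gene end. They covered the number of called loci under edgeR and DESeq2 library sizes as well.

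Of 34 named loci, Tug1 (log2 ratio -0.015) and Ppm1h (0.26) changed sign on reads of every class and were no longer called. Another 5 lost the call: Dvl3, Rnf146 and Mthfsl on reads of every class, and Nlgn3 and Spred2 with no read minimum. Slc1a2 in its 3′ UTR and Shank1 stayed called on reads of every class. Their log2 ratios, however, fell from 12.2 to 0.17 and from 11.4 to 0.51. The alternative of every class, the minimum of 100 bases and the share without Gm26917 were chosen after seeing the data. No paired analysis was possible because the 2 libraries form 1 group. Below 20 reads in total, a locus was not tested, and ends were compared only over the 227 loci with a member model in both libraries.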
